A study of Mus musculus with 6 samples.

Results

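Mitochondrial ribosomal proteins are encoded in the nucleus, made in the cytosol and imported into mitochondria, where they assemble with mitochondrial ribosomal RNA into the mitoribosome. This ribosome translates the few messages of the mitochondrial genome, all of which encode subunits of the oxidative phosphorylation complexes. Oocytes hold very many mitochondria, and inherited defects of several mitoribosomal proteins are associated with ovarian insufficiency in humans. The family was taken here as every gene whose symbol begins with Mrpl (large subunit) or Mrps (small subunit) followed by a digit. This gave 78 of the 19423 genes in the table, and all 78 passed the filter on low counts. The lowest count of any of the 78 in any library was 176.

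The RNA came from ovaries of female balb/c-nude mice, a strain without a thymus in which human cells can grow. The 3 tumor libraries were from mice that carried tumors of cells named MBA-MD-231 in the labels, injected under the skin, on day 80; the treatment labels number these cells differently in each sample, while the cell line label does not change. The 3 control libraries were from mice of the same strain labelled as controls, also on day 80. The labels do not give ages or litters, nor whether each library came from 1 animal, so p-values measure the spread between these libraries. The series title connects oxidative stress from the tumor with follicle loss.

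Libraries held between 18278614 and 19238900 estimated counts. Transcripts of granulosa cells, the somatic cells of follicles, were present in every library, with a summed level between 3100 and 5290 TPM (a level scaled for transcript length and library size) over 6 markers. The libraries were not alike in tissue make-up. White fat markers (8 of 8 in the table) summed to 19700, 1630 and 7510 TPM in tumor 1, 2 and 3 and to 994, 1490 and 1170 TPM in control 1, 2 and 3. Oocyte markers (6 of 6) summed to between 557 and 722 TPM in tumor ovaries and between 322 and 439 TPM in control ovaries. Luteal markers (5 of 5) summed to between 73.0 and 447 TPM in tumor ovaries and between 623 and 1450 TPM in control ovaries. Markers of skeletal muscle (4 of 4) were near 0, between 2.30 and 4.72 TPM. The part of these markers in the results was not tested, apart from a fit with the white fat markers as a covariate. In bulk RNA, fewer cells of a type and less RNA per cell cannot be told apart.

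The family was moderately expressed, with a summed level of 5950, 6504 and 6622 TPM in tumor 1, 2 and 3. The sum was 7532, 6860 and 7374 TPM in control 1, 2 and 3. All 3 tumor libraries lay below all 3 control libraries, with a mean of 6359 ± 359 TPM in tumor ovaries and 7255 ± 351 TPM in control ovaries (SD, n = 3 each). Large-subunit genes summed to 4241 ± 222 TPM in tumor ovaries and 4858 ± 258 TPM in control ovaries. Small-subunit genes summed to 2048 ± 132 TPM in tumor ovaries and 2292 ± 90.7 TPM in control ovaries. As a share of all estimated counts the family took 0.289, 0.313 and 0.317% in tumor 1, 2 and 3, against 0.380, 0.335 and 0.366% in control 1, 2 and 3. Tumor 1 had the lowest level of 60 of the 78 genes, and control 1 had the highest level of 50. Of the 6 libraries, tumor 1 had the highest white fat and oocyte sums and the lowest granulosa and luteal sums.

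**Figure D1:**
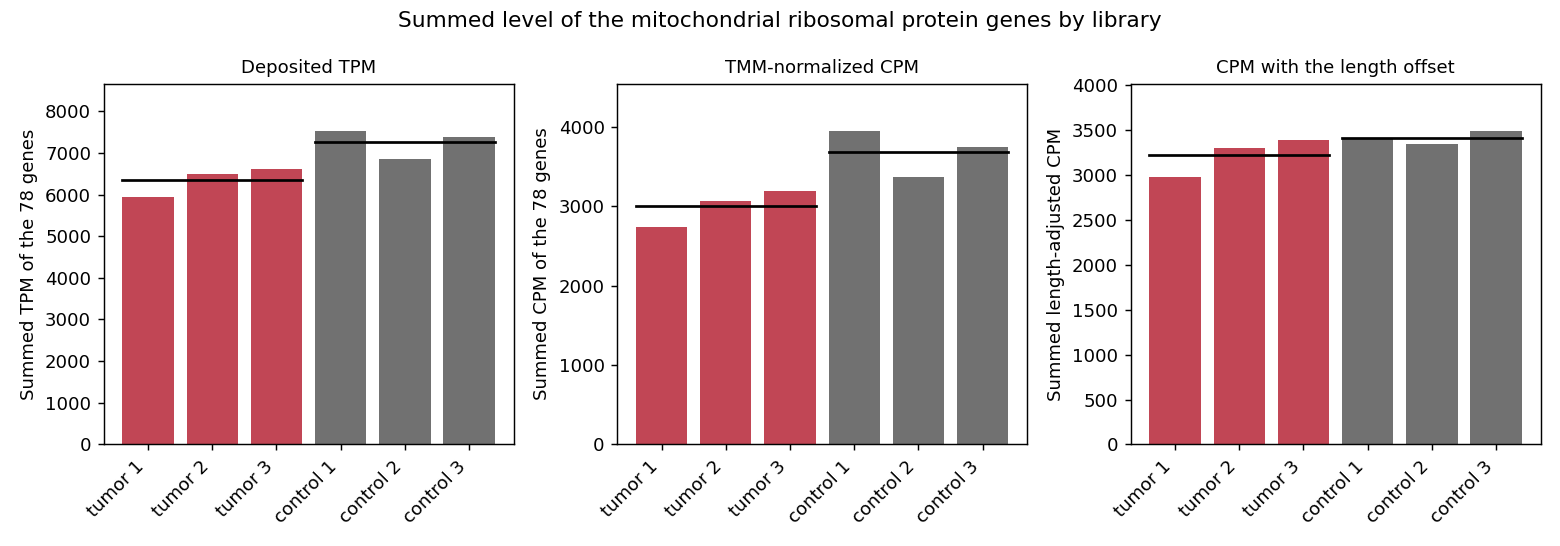
Summed level of the 78 mitochondrial ribosomal protein genes in each library as deposited TPM (left), CPM, counts scaled to library size with TMM normalization (middle) and CPM after adjustment for transcript length (right); bars are libraries and black lines group means. Tumor and control libraries do not overlap in the first 2 panels, and with the length adjustment tumor 3 (3397) lies above control 2 (3350).

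Levels per length differed widely between the genes. Mrpl52, a large-subunit protein found only in mitochondrial ribosomes, had the highest mean over the 6 libraries at 299 TPM. Mrps21, a small-subunit protein with a bacterial counterpart, followed at 290 TPM. Mrpl42 (198 TPM), Mrpl23 (194 TPM), which sits at the exit of the peptide tunnel, and Mrpl54 (173 TPM) came next. The lowest were Mrpl19 at 11.9 TPM, Mrpl35 at 18.1 TPM and Mrpl17 at 19.6 TPM. These 3 have some of the longest transcripts of the family as annotated, at 4967, 3646 and 6663 bases.

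To show the regulatory sequence next to the values, the 150 bases before the start listed in the RefSeq promoter table (GRCm38.p6) are given for 3 members. Mrpl34 and Mrpl47 were the lowest and the highest member by fold change without adjustment for length. Mrps11 starts back to back with another member, Mrpl46. The listed start of Mrpl34 lies a short way inside the span annotated in the deposited table, and those of Mrps11 and Mrpl47 lie at its end. Capitals mark exact matches on either strand to CCGGAAG, letters bound by GABPA and other ETS factors, or to AAGATGGCG, letters bound by YY1.
Mrpl34 (chr8:71464776-71464925, plus strand): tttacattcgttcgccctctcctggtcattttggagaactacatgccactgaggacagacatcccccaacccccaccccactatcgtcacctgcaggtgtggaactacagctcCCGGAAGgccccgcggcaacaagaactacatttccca
Mrps11 (chr7:78782981-78783130, plus strand): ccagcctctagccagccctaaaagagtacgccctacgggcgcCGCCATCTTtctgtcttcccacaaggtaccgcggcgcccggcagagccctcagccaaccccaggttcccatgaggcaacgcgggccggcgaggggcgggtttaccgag
Mrpl47 (chr3:32736756-32736905, minus strand): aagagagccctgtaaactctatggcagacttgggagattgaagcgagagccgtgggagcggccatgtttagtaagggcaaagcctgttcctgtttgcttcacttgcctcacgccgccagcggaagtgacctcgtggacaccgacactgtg

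Mrpl34 held the ETS letters, Mrps11 held the YY1 letters in reverse complement, and the stretch shown for Mrpl47 held neither as an exact match. Inexact matches were not searched for, so sites with other letters may be present in any of the 3. For the whole family, windows from 250 bases before to 50 bases after each annotated start were searched on both strands, and 69 members had an entry. In 18 of the 69, Mrpl36 among them, every listed start lay over 500 bases from the end of the annotated span, so these windows may not be the region before the gene's main start. A gene can have several starts and was counted when any of its windows held a match. CCGGAAG was found in 26 of the 69 members (37.7%), against 17.2% of the 12502 tested genes with an entry and 8.9% of all 32851 windows. AAGATGGCG was found in 8 (11.6%), against 2.9% of tested genes and 1.4% of windows. CGCATGCG, the palindrome bound by NRF1, was found in 7 (10.1%), against 3.7% of tested genes and 1.9% of windows, and in 3 (4.3%, against 2.0% and 1.0%) when 1 further base of the palindrome was asked for on each side. GGGCGGGG, a run of letters bound by SP1 and KLF factors, was found in 16 (23.2%), against 34.2% of tested genes and 17.6% of windows. Among the 9 genes that changed in the comparison described next, 3 held CCGGAAG, 1 held AAGATGGCG, 1 held GGGCGGGG and 1 held CGCATGCG. A match describes these letters only.

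The members lay on 17 chromosomes, with 11 on chromosome 11. Of the 78, 22 (28.2%) had a neighbour that starts within 1000 bases and runs the other way, against 8.6% of all tested genes. One such pair joins members of both subunits: Mrpl46 and Mrps11 start 42 bases apart on chromosome 7. By the annotated spans, Mrpl36 starts 21 bases from Ndufs6, a subunit of respiratory complex I, and Mrps12 starts 136 bases from Sars2, the mitochondrial seryl-tRNA synthetase.

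Tumor and control ovaries were first compared without regard to transcript length, by the quasi-likelihood F test of edgeR on the estimated counts with Benjamini-Hochberg adjustment over 15787 genes. In this fit 9 of the 78 genes (11.5%) were lower in tumor ovaries at an adjusted p under 0.05 and 0 were higher, where 3.91% of all tested genes were lower and 3.8% higher. At an unadjusted p under 0.05, 36 members were lower and 0 higher, against 15.2% and 15.8% of all tested genes. The median log2 fold change of the members was -0.26, beside -0.02 for all tested genes, with a range from -0.82 to 0.30. Of the 78, 72 (92.3%) lay below 0, against 51.5% of all tested genes. Tumor and control libraries did not overlap for 38 members with tumor lower (48.7%, background 18.4%) and for 2 with tumor higher (2.56%, background 19.8%). The 9 calls depended on which libraries were used: leaving out tumor 2, tumor 3, control 1 or control 3 gave 0 (between 0 and 0.0312% of all tested genes were then lower), leaving out tumor 1 gave 12 (background 9.63%) and leaving out control 2 gave 22 (background 6.78%). With the mean of the white fat markers as a covariate, a setting added after the data were seen, 0 members were called. In that fit 0 of all 15787 tested genes were called either, and 60 of the 78 members lay below 0.

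Most of the 9 belonged to the large subunit. Mrpl34 (chr8:71464695-71469135), one of the smallest proteins of the large subunit, had 24.4, 31.2 and 31.8 CPM (counts scaled to library size, not to length) in tumor 1, 2 and 3, against 61.1, 40.4 and 53.0 CPM in control 1, 2 and 3. Every tumor library lay below every control library, and tumor 1 was the lowest. The log2 fold change was -0.82 ± 0.18 (SE; adjusted p = 0.0483, edgeR). Mrpl36 (chr13:73328503-73332178), a short zinc-binding protein of the large subunit, had 25.0, 28.1 and 33.3 CPM in the tumor libraries, against 44.0, 40.5 and 42.8 CPM in the control libraries. Its groups did not overlap either, with a log2 fold change of -0.56 ± 0.13 (adjusted p = 0.0488, edgeR). Mrpl20 (chr4:155802878-155808831), which binds ribosomal RNA early in large-subunit assembly in bacteria, reached 32.8, 37.2 and 36.8 CPM in tumor ovaries, against 57.9, 48.4 and 51.6 CPM in control ovaries. It fell by 0.56 on the log2 scale (SE 0.11, adjusted p = 0.0386, edgeR).

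Mrpl24 (chr3:87918131-87923450), another RNA-binding protein of the large subunit, had 53.7, 52.1 and 56.0 CPM in the tumor libraries, against 75, 66.3 and 75.7 CPM in the control libraries. The tumor values were close together and all were below control 2, the lowest control. Its log2 fold change was -0.42 ± 0.09 (adjusted p = 0.0436, edgeR). Mrpl10 (chr11:97041582-97049213), which anchors the stalk that recruits translation factors, had the smallest change of the 9. It reached 62.1, 69.4 and 69.7 CPM in tumor ovaries, against 89.5, 83.6 and 88.3 CPM in control ovaries. The log2 fold change was -0.38 ± 0.08 (adjusted p = 0.0479, edgeR). Mrpl12, the stalk protein itself, had 55.3 ± 6.68 CPM in tumor ovaries and 60.1 ± 5.89 CPM in control ovaries (SD, n = 3 each), and its groups overlapped (log2 fold change -0.12 ± 0.12, adjusted p = 0.561, edgeR).

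Among proteins that only mitochondrial ribosomes carry, Mrpl53, Mrpl43 and Mrpl41 fell. Mrpl53 (chr6:83106587-83109980) had 19.2, 21.4 and 22.6 CPM in the tumor libraries, against 37.2, 29.7 and 33.3 CPM in the control libraries, without overlap (log2 fold change -0.67 ± 0.13, adjusted p = 0.0386, edgeR). Mrpl43 (chr19:45005014-45006442) had 33.9, 35.1 and 37.2 CPM in the tumor libraries, against 59.1, 46.6 and 52.0 CPM in the control libraries (-0.57 ± 0.11, adjusted p = 0.0408). Mrpl41 (chr2:24972470-24975098) had 31.0, 33.4 and 39.6 CPM in the tumor libraries, against 49.9, 49.0 and 48.3 CPM in the control libraries (-0.50 ± 0.11, adjusted p = 0.0484). In all 3 genes the highest tumor library was tumor 3 and it stayed below every control library. Strand was not given for the libraries, and Mrpl43 overlaps Twnk on the other strand over 780 bases, Mrpl24 overlaps Rrnad1 over 850 bases and Mrpl34 overlaps Abhd8 over 13 bases. Mrpl53 overlaps Ccdc142 on the same strand over 2535 bases and Mrpl10 overlaps Osbpl7 over 1303 bases, so reads of these pairs may not be separable.

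The remaining call, Mrps36 (chr13:100735940-100744659), carries a small-subunit name, but in mammals its product belongs to the 2-oxoglutarate dehydrogenase complex of the citric acid cycle. It had 18.7, 20.4 and 24.1 CPM in the tumor libraries, against 37.7, 32.1 and 36.7 CPM in the control libraries. The groups lay far apart relative to their spread (log2 fold change -0.75 ± 0.13, adjusted p = 0.0385, edgeR).

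By class, 5 of 30 large-subunit genes with a bacterial counterpart fell, with a median log2 fold change of -0.23. Of 21 mitochondrion-specific large-subunit genes 3 fell, with a median of -0.32. The share of all tested genes that were lower was 3.91%. None of 26 small-subunit genes passed in edgeR, and their median was -0.19. At an unadjusted p under 0.05, 10 of the 26 were lower (38.5%, background 15.2%) and 0 higher. DESeq2 called 4 of the 26 lower (background 9.51%), and limma on log2(FPKM + 1) called 1 (background 3.7%). All 26 lay below 0. The difference between the subunits was not tested. Mrps12, at the decoding centre of the small subunit, had 20.3, 27.3 and 31.7 CPM in the tumor libraries, against 46.7, 38.4 and 40.6 CPM in the control libraries. These groups did not overlap, but the call was missed (-0.66 ± 0.18, adjusted p = 0.0687, edgeR). Mrps21, the most abundant small-subunit gene, had 41.5, 48.2 and 53.1 CPM in the tumor libraries, against 89.8, 62.8 and 72.4 CPM in the control libraries (-0.66 ± 0.16, adjusted p = 0.0567). Mrps16 had 23.5 ± 2.06 CPM in tumor ovaries and 29.3 ± 2.62 CPM in control ovaries (-0.32 ± 0.12, adjusted p = 0.132).

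Some symbols of the family do not show the subunit of their product. Mrps18a and Mrps30 encode large-subunit proteins in mammals, while the related Mrps18b and Mrps18c belong to the small subunit. Mrps18a had 38.8 ± 3.94 CPM in tumor ovaries and 46.4 ± 5.57 CPM in control ovaries (SD, n = 3 each; adjusted p = 0.223, edgeR). Mrps18b had 42.0 ± 8.33 CPM in tumor ovaries and 46.4 ± 2.31 CPM in control ovaries (adjusted p = 0.581). Mrps18c had 18.9 ± 1.40 CPM in tumor ovaries and 22.6 ± 1.89 CPM in control ovaries (adjusted p = 0.204). Mrps30 was nearly level, at 50.9 ± 6.17 CPM in tumor ovaries and 50.2 ± 1.77 CPM in control ovaries (adjusted p = 0.920). None of the 4 passed, and tumor and control libraries overlapped for Mrps18a, Mrps18b and Mrps30.

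Mrps22, Mrps7 and Mrpl50 are the members whose human counterparts have been tied to ovarian insufficiency or failed gonadal development. Mrps22 had 22.6, 23.2 and 30.4 CPM in the tumor libraries, against 25.3, 25.3 and 27.2 CPM in the control libraries (log2 fold change -0.03 ± 0.14, adjusted p = 0.903, edgeR). Mrps7 had 38.7, 46.1 and 49.3 CPM in the tumor libraries, against 52.6, 43.3 and 51.8 CPM in the control libraries (-0.14 ± 0.13, adjusted p = 0.508). Mrpl50 had 41.2, 38.5 and 47.7 CPM in the tumor libraries, against 40.1, 41.5 and 42.9 CPM in the control libraries (0.03 ± 0.11, adjusted p = 0.866). In all 3 genes tumor and control libraries overlapped. Tumor 1 was the lowest of all 6 libraries for Mrps22 and Mrps7.

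**Figure D2:**
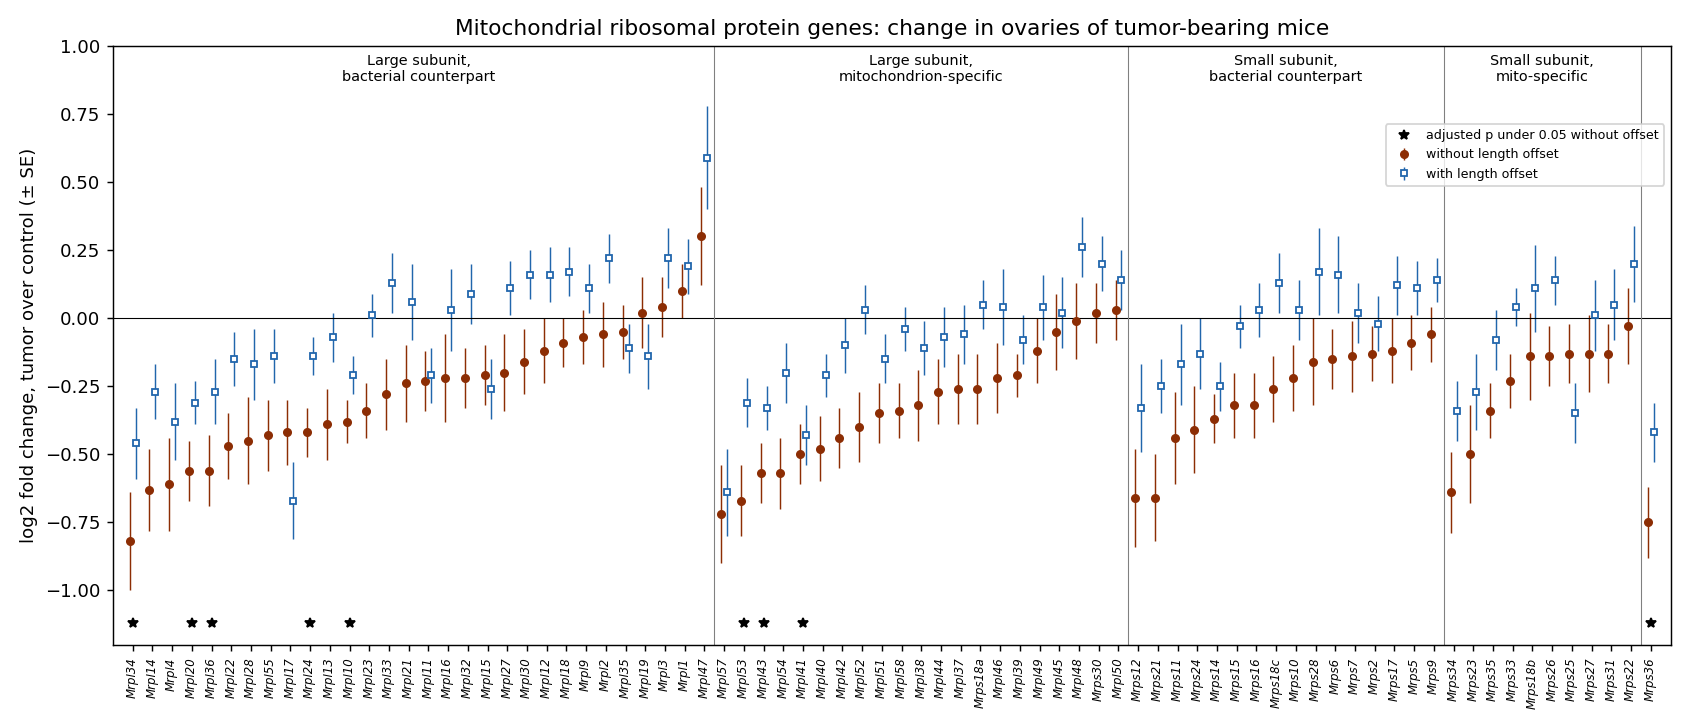
Log2 fold change (tumor over control, ± SE, 3 libraries each) of all 78 genes by class, without (filled circles) and with (open squares) adjustment for transcript length; stars mark the 9 genes with an adjusted p under 0.05 without the adjustment. Filled circles lie below 0 for 72 genes, open squares for 41, and no gene has an adjusted p under 0.05 with the adjustment.

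Transcripts of this family are short. Their effective length, the length the authors' quantification used after allowing for read ends, ran from 363 to 6663 bases with a median of 1018 bases, beside 2841 bases for all tested genes. In all, 66 of 78 (84.6%) were under 2 kb, against 30.2% of tested genes. Across all tested genes the tumor against control fold change rose with length (Spearman rho 0.37 over 15787 genes, which are not independent), and among the 78 members rho was 0.44. The libraries differed in this respect. Genes of 500 bases deviated from their mean over the libraries by -0.20, -0.21 and -0.149 on the log2 scale in tumor 1, 2 and 3 and by 0.355, 0.021 and 0.182 in control 1, 2 and 3. All 3 tumor curves were below all 3 control curves at that length, and control 2 was nearly flat.

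Under 2 kb, the members had medians close to those of all tested genes of the same length, and above it theirs were lower. Under 1 kb, the median log2 fold change was -0.34 for 36 members and -0.35 for 1113 tested genes. From 1 to 2 kb it was -0.22 for 30 members and -0.19 for 3648 genes. From 2 to 4 kb it was -0.13 for 9 members and -0.02 for 6425 genes. The 3 members of 4 kb and over had a median of -0.13, while 4601 genes of that length had 0.21.

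**Figure D3:**
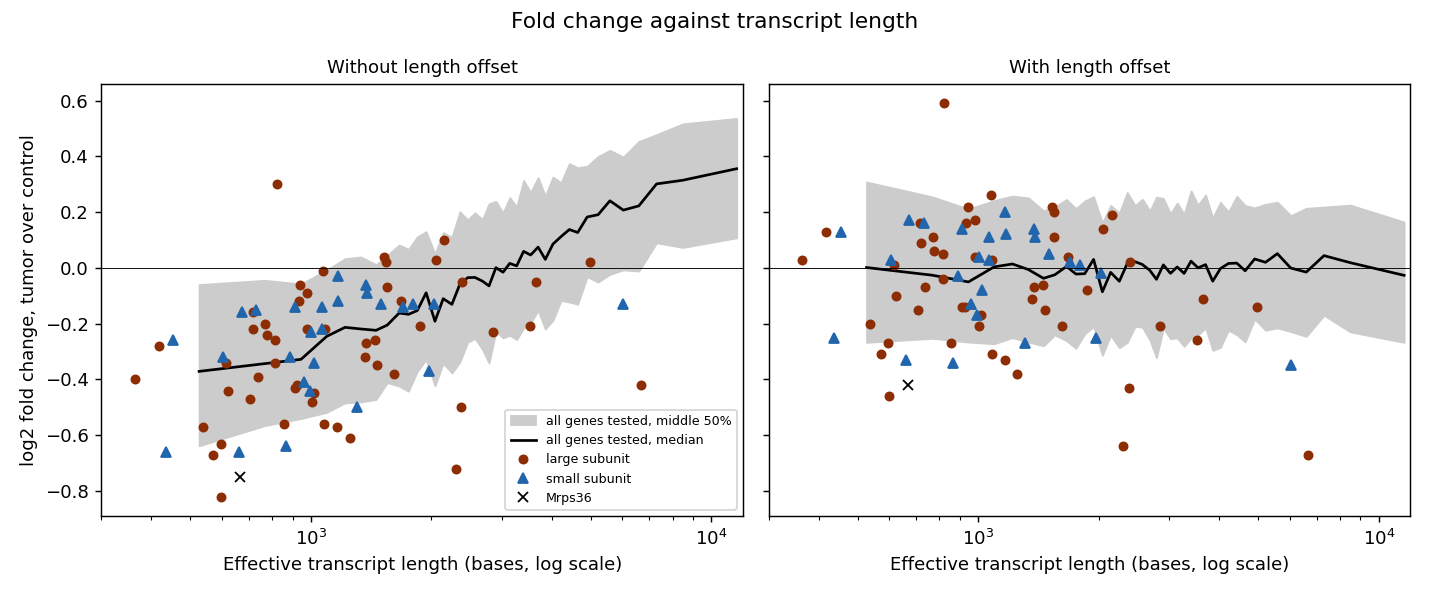
Log2 fold change (tumor over control) against effective transcript length on a log axis for the 78 genes, without (left) and with (right) the length offset, with the median (line) and the middle 50% (band) of all tested genes in classes of length. Without the offset both the members and all genes lie lower at short lengths (Spearman rho 0.44 and 0.37). With it rho is -0.08 and 0.00. The value for all genes is near 0 by construction, since the offset was fitted over these genes.

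A second fit took length into account by adding to each library's normalization a smooth curve of its deviations against log2 length, estimated over all tested genes. With this length offset 0 of the 78 genes were lower and 0 higher at an adjusted p under 0.05 in edgeR, where 1.3% of all tested genes were lower and 0.969% higher. At an unadjusted p under 0.05, 16 members were lower and 2 higher, against 12.8% of all tested genes in each direction. The median log2 fold change of the members moved to -0.04, beside -0.00 for all genes, and 41 of 78 lay below 0. The sign differed between the fits for 33 members, of which 32 lay below 0 without and above 0 with the offset, and the size shrank for 57. Tumor and control libraries did not overlap for 18 members with tumor lower (background 16.1%) and for 7 with tumor higher (background 16.8%). Medians by class were -0.09 for large-subunit genes with a bacterial counterpart, -0.07 for mitochondrion-specific large-subunit genes, 0.02 for small-subunit genes with a bacterial counterpart and 0.03 for mitochondrion-specific small-subunit genes. The family's summed length-adjusted level was 2985, 3302 and 3397 CPM in tumor 1, 2 and 3, against 3409, 3350 and 3496 CPM in control 1, 2 and 3. Tumor 1 was the lowest library for 44 genes on this scale.

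The 9 genes that fell without the offset kept a value below 0 with it, at a smaller size. Mrpl34 had 27.7, 35.6 and 35.1 length-adjusted CPM in the tumor libraries, against 48.6, 39.9 and 47.2 in the control libraries (log2 fold change -0.46 ± 0.13, adjusted p = 0.104, edgeR). Mrps36 had 21.2, 23.1 and 26.5 length-adjusted CPM in the tumor libraries, against 30.3, 31.8 and 32.8 in the control libraries (-0.42 ± 0.11, adjusted p = 0.0925). Mrpl41, with an effective length of 2374 bases the longest of the 9, moved least, to -0.43 ± 0.11 (adjusted p = 0.0820). Mrpl43 had -0.33 ± 0.08 (adjusted p = 0.0751), and Mrpl20 and Mrpl53 each had -0.31 (adjusted p = 0.0874 and 0.109). Mrpl36 (-0.27 ± 0.12), Mrpl10 (-0.21 ± 0.07) and Mrpl24 (-0.14 ± 0.07) were smaller. The groups overlapped for Mrpl36 and stayed apart for the other 8.

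**Figure D4:**
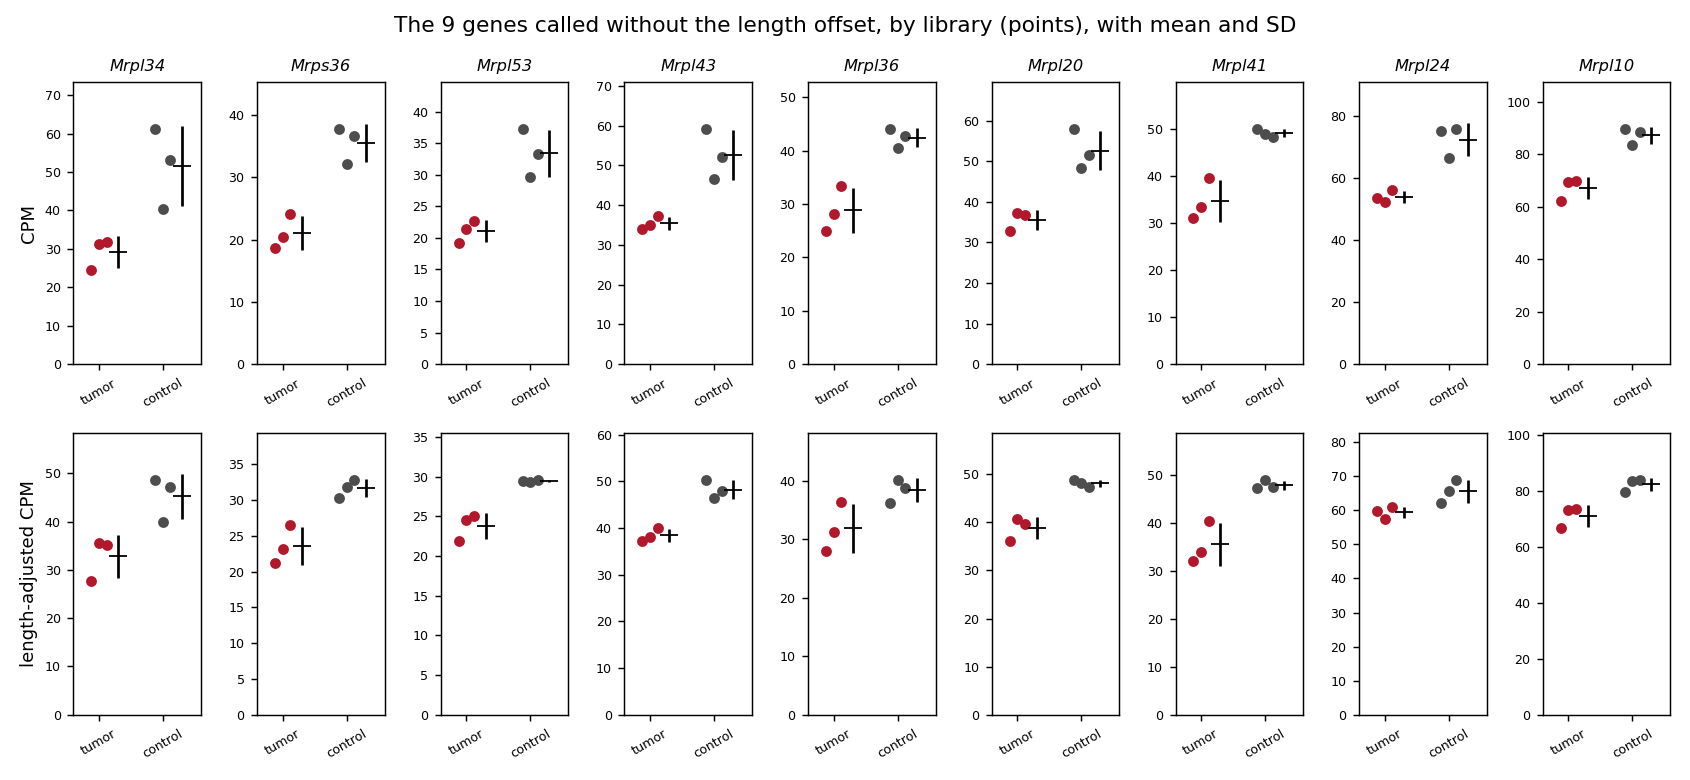
Level of the 9 genes with an adjusted p under 0.05 without the length offset, in each tumor and control library (points) with group mean and SD (n = 3 each), as CPM (top row) and length-adjusted CPM (bottom row). The groups do not overlap in any top panel, and in the bottom row they overlap only for Mrpl36, where tumor 3 (36.3) lies above control 1 (36.2).

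With the offset the lowest members were Mrpl17 and Mrpl57. Mrpl17, a protein near the exit of the peptide tunnel, had 46.6, 49.8 and 52.2 length-adjusted CPM in the tumor libraries, against 90.6, 63.5 and 82.6 in the control libraries (-0.67 ± 0.14, adjusted p = 0.0648, edgeR). Without the offset it was at -0.42 ± 0.12 (adjusted p = 0.0766), so here the adjustment enlarged the value. Leaving out control 2 gave -0.80 with an adjusted p of 0.0292, the 1 member called in any of the 6 length-adjusted fits that leave out a library. In that fit 2.57% of all 16011 tested genes were lower. The listed length of Mrpl17, 6663 bases, is the longest of the family, and its annotated span (chr7:105762321-105863650) overlaps Dchs1 on the other strand over 26035 bases. Whether that length describes the transcript that was sequenced was not tested. Mrpl57, a mitochondrion-specific protein, had 21.3, 30.2 and 30.3 length-adjusted CPM in the tumor libraries, against 46.7, 38.2 and 42.8 in the control libraries (-0.64 ± 0.16, adjusted p = 0.0879). Both genes were lower in all 3 tumor libraries than in any control library.

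At the other end stood Mrpl47, Mrpl48, Mrpl2 and Mrpl3. Mrpl47, a protein near the tunnel exit, had 12.6, 12.2 and 16.3 length-adjusted CPM in the tumor libraries, against 8.15, 10.6 and 8.57 in the control libraries. These groups did not overlap (0.59 ± 0.19, adjusted p = 0.126, edgeR), and they also did not overlap without the offset, at 11.2, 10.9 and 14.9 CPM in the tumor libraries, against 9.94, 10.7 and 9.47 CPM in the control libraries (0.30 ± 0.18, adjusted p = 0.307). Mrpl48 had 0.26 ± 0.11 with the offset and -0.01 ± 0.14 without it. Mrpl2, which lies close to the catalytic centre, had 0.22 ± 0.09 with the offset and -0.06 ± 0.12 without it. Mrpl3 had 0.22 ± 0.11 with the offset and 0.04 ± 0.11 without it. None of the 4 passed in either fit.

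For most of the abundant members the length offset brought the groups together. Mrpl52, the shortest member at 363 bases, had 45.2 ± 4.01 CPM in tumor ovaries and 59.7 ± 8.82 CPM in control ovaries without it (log2 fold change -0.40 ± 0.13). With it, Mrpl52 had 52.2 ± 4.56 length-adjusted CPM in tumor ovaries and 51.3 ± 2.41 in control ovaries (0.03 ± 0.09, adjusted p = 0.900). Mrpl23 moved from -0.34 ± 0.10 to 0.01 ± 0.08, Mrpl42 from -0.44 ± 0.11 to -0.10 ± 0.10, and Mrpl54 from -0.57 ± 0.13 to -0.20 ± 0.11, all as log2 fold changes without and then with the offset. Mrps21 moved from -0.66 ± 0.16 to -0.25 ± 0.10 and its groups still did not overlap. Mrpl58, a peptidyl-tRNA hydrolase that became part of the large subunit, moved from -0.34 ± 0.10 to -0.04 ± 0.08. The long members Mrpl19 and Mrpl35 had 0.02 ± 0.13 and -0.05 ± 0.10 without the offset and -0.14 ± 0.12 and -0.11 ± 0.09 with it.

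The authors' deposited table of their own comparison, made with DESeq2 per its header and without a length term named in it, listed 21 of the 78 genes at q under 0.05 with lower values in tumor ovaries and 0 with higher values. There, 7.3% of the 19327 genes with a q were lower and 7.36% higher. All 9 genes called by edgeR without the offset were among the 21. DESeq2 run on the same counts here also called 21 members lower, against a background of 9.51% of tested genes.

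The deposited transcript levels give the usage of transcripts within each gene. Of the 78 members, 38 had levels listed for 1 transcript only and 40 for 2 or more. Some of the 38 have more transcripts in the deposited annotation, such as Mrpl34 and Mrpl53 with 2 and Mrpl17 with 3. In 23 of the 40 the main transcript made up over 90% of the gene's TPM in both groups. The share of the main transcript did not overlap between the groups in 10 of the 40 (25.0%). This was so for 16.3% of the 11157 tested genes with levels for 2 or more transcripts. The widest shift was in Mrpl39, a mitochondrion-specific large-subunit protein. Its main transcript took 34.9, 36.8 and 50.6% in tumor 1, 2 and 3, against 64.6, 56.9 and 58.5% in control 1, 2 and 3. In Mrpl4 the share was 73.0, 80.9 and 82.5% in the tumor libraries, against 91.2, 85.1 and 89.4% in the control libraries. In Mrpl58 it was 91.7, 91.7 and 91.4% in the tumor libraries, against 88.6, 86.7 and 78.6% in the control libraries. These 3 were picked after the shares were seen, estimates from single-end reads of 50 bases cannot place most reads on 1 transcript, and no test was made.

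Divergent partners gave a view of neighbouring genes. Some pairs differed in length and some were alike, such as Mrpl46 (980 bases) and Mrps11 (995 bases). Ndufs6, with an effective length of 457 bases, had a log2 fold change of -0.39 without the offset and 0.00 with it, where its neighbour Mrpl36 had -0.56 and -0.27. Sars2 had -0.29 and -0.13, where Mrps12 had -0.66 and -0.33. Within the pair of members, Mrpl46 had -0.22 and 0.04 and Mrps11 had -0.44 and -0.17. Ndufb5, which starts 302 bases from Mrpl47, had -0.34 and -0.02, where Mrpl47 had 0.30 and 0.59. Prpf3, a splicing factor gene of 2520 bases, had 0.14 and 0.19 beside Mrps21 with -0.66 and -0.25. None of the neighbours named here passed the test in either fit; they were chosen after their values were seen.

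Other genes of mitochondrial translation were compared in the same fits. Of 5 mitoribosomal proteins that carry other symbols, Aurkaip1 fell without the offset (50.3 ± 3.34 CPM in tumor ovaries and 78.6 ± 10.9 CPM in control ovaries, log2 fold change -0.64 ± 0.12, adjusted p = 0.0397, edgeR) and had -0.40 ± 0.09 with it (adjusted p = 0.0723). Chchd1 had -0.38 ± 0.10 without and -0.02 ± 0.09 with the offset, and Dap3, a GTP-binding protein of the small subunit, had -0.08 ± 0.12 and 0.08 ± 0.10. None of 24 mitoribosome assembly genes passed in either fit (2 had an unadjusted p under 0.05 without the offset and 1 with it), with medians of -0.14 and 0.02, and DESeq2 called 0. Of the assembly genes, Ngrn had -0.28 ± 0.09 without and -0.07 ± 0.10 with the offset, and Rpusd4 had 0.14 ± 0.11 and 0.28 ± 0.11. Of 16 translation factors and regulators, Slirp, which stabilizes mitochondrial messages, fell without the offset (-0.49 ± 0.10, adjusted p = 0.0449) and had -0.07 ± 0.11 with it. Tufm, the mitochondrial elongation factor Tu, had 108 ± 16.0 CPM in tumor ovaries and 136 ± 2.2 CPM in control ovaries (-0.34 ± 0.12, adjusted p = 0.120). Rmnd1 had 0.09 ± 0.10 without and 0.23 ± 0.09 with the offset. Of 17 mitochondrial aminoacyl-tRNA synthetases, Iars2 rose without the offset, with 165 ± 6.90 CPM in tumor ovaries and 125 ± 2.2 CPM in control ovaries (0.39 ± 0.08, adjusted p = 0.0399), and had 0.32 ± 0.07 with it (adjusted p = 0.0685). Cars2 had -0.49 ± 0.13 without and -0.36 ± 0.12 with the offset (adjusted p = 0.0639 and 0.133). Lars2 (-0.10 ± 0.10) and Hars2 (0.12 ± 0.09), whose human counterparts are tied to ovarian insufficiency with hearing loss, did not pass without the offset. With the offset, none of the genes in these 4 lists passed. Without it, DESeq2 called 3 of the 5 mitoribosomal proteins with other symbols lower, 1 of the 16 translation factors lower, and 1 of the 17 synthetases lower and 1 higher. In that fit 9.51% of all tested genes were lower, and 3057 of 15787 were called in either direction. At an unadjusted p under 0.05 in edgeR, 15.2% of all tested genes were lower and 15.8% higher without the offset. With the offset these shares were 12.8% in each direction. A list of 11 genes of mitochondrial translation and mitochondrial upkeep tied to ovarian insufficiency in humans, which holds Mrps22, Mrps7, Mrpl50, Lars2 and Hars2, had 0 calls by edgeR in either fit and 0 by DESeq2. None of the 11 had an unadjusted p under 0.05 without the offset and 1 had with it (higher), and the medians were -0.08 and 0.08.

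Neither the genes that copy and transcribe mitochondrial DNA nor the regulators of the family held a call in edgeR, with or without the offset. For 10 genes of mitochondrial DNA maintenance and transcription the median was 0.11 without and 0.12 with the offset, and 0 had an unadjusted p under 0.05 in edgeR in either fit. Tfam, which packages mitochondrial DNA, had 0.11 ± 0.10 without and 0.04 ± 0.09 with the offset, and Polrmt, the mitochondrial RNA polymerase, had 0.10 ± 0.15 and 0.03 ± 0.15. Polg, the mitochondrial DNA polymerase, had 0.23 ± 0.12 and 0.04 ± 0.12, and Tfb2m, a transcription factor of mitochondria, had 0.12 ± 0.10 and 0.19 ± 0.10. For 9 regulators the medians were 0.25 and 0.31. Without the offset 5 had an unadjusted p under 0.05 (4 higher, 1 lower), against 15.8% of all tested genes higher and 15.2% lower. With it 3 did (all higher), against 12.8% of all tested genes in each direction. DESeq2 without the offset called 0 of the 10 maintenance genes and 2 of the 9 regulators, both higher. It called 3057 of all 15787 tested genes in either direction. Nrf1 had 42.9, 47.6 and 56.3 CPM in the tumor libraries, against 37.1, 39.4 and 37.7 CPM in the control libraries, without overlap (0.36 ± 0.12, adjusted p = 0.0997, edgeR). With the offset Nrf1 had 0.31 ± 0.11 (adjusted p = 0.152, edgeR). Ppargc1b, a coactivator of mitochondrial gene expression, had 12.5, 8.37 and 9.27 CPM in the tumor libraries, against 5.51, 5.99 and 4.79 CPM in the control libraries (0.88 ± 0.22, adjusted p = 0.0596). The offset brought Ppargc1b to 0.55 ± 0.21 (adjusted p = 0.174, edgeR). Pprc1, a related coactivator, had 0.55 ± 0.17 without and 0.40 ± 0.15 with the offset. Ppargc1a, which is also abundant in brown fat, had 8.31 CPM in tumor 1 and 3.36 and 3.0 CPM in the other tumor libraries, against 3.84, 3.0 and 2.69 CPM in control ovaries (0.62 ± 0.44, adjusted p = 0.383). Its value with the offset was 0.39 ± 0.45 (adjusted p = 0.637, edgeR). The part of brown fat in the level of Ppargc1a was not tested.

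Both nuclear gene families closest in kind also have short transcripts, and their values are given beside those of the mitoribosomal family. Subunits of oxidative phosphorylation (78 tested, median length 681 bases) had 13 genes (16.7%) lower without the offset in edgeR, with a median of -0.38, and 45 in DESeq2. With the offset 2 (2.56%) were lower, with a median of -0.06. Of all tested genes, 3.91%, 9.51% and 1.3% were lower in these fits, in that order. Ndufa13, a subunit of complex I, was 1 of the 2, with 72.7 ± 2.81 length-adjusted CPM in tumor ovaries and 99.1 ± 2.17 in control ovaries (-0.45 ± 0.07, adjusted p = 0.0436, edgeR). The other was Ndufa11 (-0.50, adjusted p = 0.0457). Ndufa1 had -0.83 ± 0.14 without the offset (adjusted p = 0.0366) and -0.43 ± 0.10 with it (adjusted p = 0.0749). Cytosolic ribosomal proteins (79 tested, median length 654 bases) had 1 gene lower without the offset in edgeR, with a median of -0.02, and DESeq2 without the offset called 2 lower and 6 higher. That DESeq2 fit called 3057 of all 15787 tested genes in either direction, of which 1502 were lower. With the offset in edgeR, 6 of the 79 cytosolic ribosomal protein genes were higher (7.59%, background 0.969%) and the median was 0.29. At an unadjusted p under 0.05, 54 of them were higher (68.4%, background 12.8%). Rps27rt, which may share reads with its near-identical relative Rps27, had 0.86 ± 0.10 with the offset (adjusted p = 0.0296), and Rpl39 had 0.48 ± 0.07 (adjusted p = 0.0445). Their summed deposited level was 147551, 156381 and 144154 TPM in tumor 1, 2 and 3, against 144534, 132650 and 134868 TPM in control 1, 2 and 3. Under 1 kb, the medians without and with the offset were -0.34 and -0.01 for 36 members, -0.42 and -0.05 for 56 oxidative phosphorylation genes and -0.02 and 0.31 for 63 cytosolic ribosomal protein genes. Differences between the families were not tested.

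**Figure D5:**
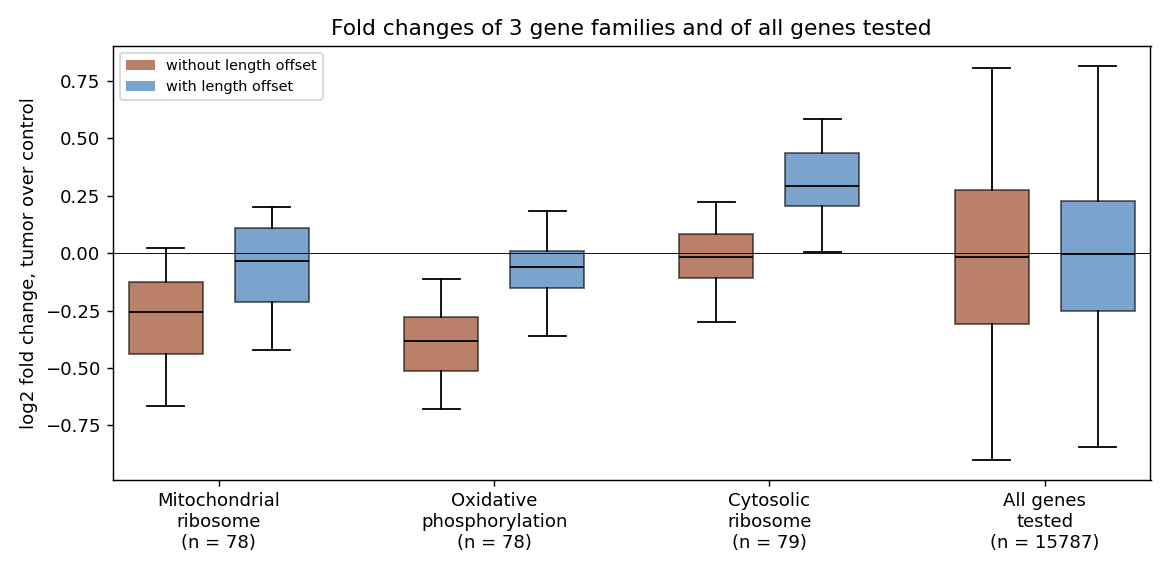
Distribution of log2 fold changes (tumor over control) for the 78 mitochondrial ribosomal protein genes, 78 oxidative phosphorylation genes, 79 cytosolic ribosomal protein genes and all 15787 tested genes, without and with the length offset; boxes end at the 25th and 75th percentile, lines mark medians and whiskers the 5th and 95th percentile. The offset moves the medians from -0.26 to -0.04, from -0.38 to -0.06 and from -0.02 to 0.29 in the 3 families, and from -0.02 to -0.00 in all genes.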

How the data were processed

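The processing notes of the submitters name GRCm38.p6 and the tools RSEM 1.2.12, Bowtie2 2.2.5 and HISAT2 2.0.4, without roles. Trizol RNA was read on an MGIseq500 (single-end, 50 bases), per the labels. Estimated counts, FPKM and TPM values per gene and per transcript were deposited by the authors, per the file headers; of the counts above 0, 39.2% were fractional. A DESeq2 comparison with p-values, q-values and log2 fold changes was deposited too, and its sign was checked to be tumor over control. A further 24 columns of values were not used.

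The members and gene lists were chosen with earlier results of these data known. Estimated counts were rounded and tested in edgeR 4.0.16 (R 4.3.3; TMM, filterByExpr, robust quasi-likelihood F test, group as the only term, 3 libraries each, Benjamini-Hochberg over all 15787 genes tested). CPM values use TMM-scaled totals. Effective length was computed from the deposited counts, library totals and FPKM, since the tables used hold no length. The length offset is a lowess curve (span 0.5) per library of log2 CPM, minus the mean over libraries, against log2 length, fitted over all tested genes. It removes any change that truly follows length as well as a technical one. Alternatives were DESeq2 1.42.0, limma 3.58.1 on log2(FPKM + 1) or log2(FPKM + 0.1), other normalization, filters, spans and covariates, each library left out in turn and a replicate block. Genes are named with values when called (up to 10 per direction), among the 4 highest or lowest with the length offset, among the 5 highest or 3 lowest in TPM, in a panel of 12 members, or, of other lists, by smallest p or in a fixed set of 8. Cell type markers were granulosa, oocyte, theca, luteal, white fat, brown fat, oviduct, macrophage and skeletal muscle lists. Promoter windows came from RefSeq for GRCm38.p6. Libraries held between 18278614 and 19238900 estimated counts, and the lowest count of a member in a library was 176, so counting error adds to the spread between libraries.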

Additional observations from a re-analysis of the deposited data

How the results depend on the processing

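Without the length offset, 9 members were lower, with 3.91% of all tested genes. DESeq2 gave 21 (9.51%), limma on log2(FPKM + 1) with no filter gave 4 (2.0%), the white fat covariate gave 0 (0%) and the length offset gave 0 (1.3%). Leaving out 1 library gave between 0 and 22 (0 to 9.63%). Upper-quartile factors gave 13 (4.4%), no filter 6 (2.68%), and limma on log2(FPKM + 1) and log2(FPKM + 0.1) 11 (3.7%) and 12 (3.73%). The median of the members was -0.26 without the offset, and no setting brought it above 0, at -0.04 with the length offset and between -0.31 and -0.20 with 1 library left out. With the length offset, 0 members were lower in the settings with all libraries. Between 0 and 1 were lower with 1 library left out (1 without control 2, where 2.57% of all tested genes were lower). In the length-offset fits the median of -0.04 moved to -0.12 with no filter and to 0.02 with the white fat covariate. It moved to between -0.08 and 0.01 with 1 library left out. No member was higher in any setting. The causes of these differences between settings were not tested.

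With the replicate number as a block, 0 members were lower in both fits, and 0 of all genes passed. Same-numbered tumor and control libraries correlated at 0.237, -0.212 and 0.529 in their deviations from the group mean. Differently numbered ones correlated at between -0.561 and 0.354. With 3 libraries per group these deviations depend on each other and cannot settle whether the numbers mark pairs. The numbers were not taken as pairs.

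Single genes changed sign in some settings, and not all of them had values near 0. In the main fit without the offset, Mrpl52 had -0.40, Mrpl23 had -0.34 and Mrps16 had -0.32. Ppargc1a had 0.62 without and 0.39 with the offset. With the length offset in place of none, the values were 0.08 for Dap3, 0.16 for Mrpl12, -0.14 for Mrpl19, 0.22 for Mrpl2, 0.01 for Mrpl23, 0.26 for Mrpl48, 0.03 for Mrpl52 and Mrps16, 0.05 for Mrps18a, 0.11 for Mrps18b, 0.13 for Mrps18c, 0.20 for Mrps22 and 0.02 for Mrps7. Without the offset, the white fat covariate gave 0.06 for Dap3, 0.02 for Lars2 and Mrps18b, 0.05 for Mrpl12, 0.11 for Mrpl2, -0.07 for Mrpl50, 0.01 for Mrps7, -0.15 for Ppargc1a and -0.05 for Tfb2m. The 3 limma settings gave 0.03 for Mrpl2, 0.01 for Mrpl35, 0.04 for Mrpl48 and 0.02 for Mrps22, and DESeq2 and upper-quartile factors gave 0.01 for Mrpl48. With the offset, no filter gave -0.13 for Mrpl23, -0.16 for Mrpl52, -0.11 for Mrps16, -0.06 for Mrps18a, -0.03 for Mrps18c and -0.02 for Mrps7. Length and GC together gave -0.02 for Mrpl50, 0.02 for Mrpl58, -0.04 for Mrps16 and -0.06 for Tfam. The white fat covariate gave 0.00 for Mrpl54, 0.03 for Mrpl58, -0.38 for Ppargc1a and -0.00 for Tfb2m. A curve without the families gave 0.02 for Chchd1, length with mean level 0.01 for Chchd1 and 0.00 for Mrpl58, and a span of 0.2 gave -0.02 for Mrpl52. With 1 library left out and no offset, ranges spanned 0 for Dap3 (-0.14 to 0.01), Mrpl19 (-0.07 to 0.13), Mrpl2 (-0.12 to 0.05), Mrpl3 (-0.01 to 0.13), Mrpl35 (-0.10 to 0.01), Mrpl48 (-0.10 to 0.13), Mrpl50 (-0.06 to 0.10), Mrps18b (-0.27 to 0.01), Mrps22 (-0.18 to 0.05) and Mrps30 (-0.07 to 0.11). With the offset they did so for Chchd1 (-0.07 to 0.00), Mrpl23 (-0.04 to 0.07), Mrpl52 (-0.03 to 0.11), Mrps16 (-0.03 to 0.10), Mrps18a (-0.01 to 0.13), Mrps18b (-0.02 to 0.26), Mrps7 (-0.06 to 0.11), Ngrn (-0.11 to 0.02), Polg (-0.03 to 0.16), Polrmt (-0.05 to 0.17), Ppargc1a (-0.22 to 0.64) and Tfam (-0.02 to 0.09). None of the 9 genes called without the offset changed sign in any setting.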

Other observations

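The members of the marker lists that the comparisons above do not use were as follows, in order of library 1, 2 and 3. Theca markers (4 genes) summed to 226, 2430 and 3320 TPM in tumor ovaries and to 168, 3410 and 202 TPM in control ovaries. Oviduct markers (5 genes) summed to 1520, 92.5 and 23.5 TPM in tumor ovaries and to 1530, 1600 and 321 TPM in control ovaries. Macrophage markers (5 genes) summed to 372, 292 and 253 TPM in tumor ovaries and to 371, 322 and 414 TPM in control ovaries. Brown fat markers (5 genes) summed to 58.5, 19.8 and 18.2 TPM in tumor ovaries and to 37.9, 52.3 and 28.2 TPM in control ovaries. Their part in the values of the mitochondrial ribosomal protein genes was not tested.

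The level of the white fat markers moved with the groups, and 7 of the 8 had an unadjusted p under 0.05 with tumor higher in edgeR without the length offset, while 0 passed the adjustment. Tumor 1 and tumor 3 carried high sums (19700 and 7510 TPM), and tumor 2 (1630 TPM) lay close to control 2 (1490 TPM). The family's median deviation from its mean over the libraries was -0.26, -0.12 and -0.06 on the log2 CPM scale in tumor 1, 2 and 3, and 0.22, 0.02 and 0.17 in control 1, 2 and 3. With the length offset it was -0.13, -0.01 and 0.04 in tumor 1, 2 and 3, and 0.01, 0.02 and 0.08 in control 1, 2 and 3. In a principal component plot of all tested genes, the first component (52.1% of the variance) was -34.6, 49.6 and 75.1 in tumor 1, 2 and 3, and -42.8, -42.1 and -5.2 in control 1, 2 and 3. On this component tumor 1 lay among the control libraries. On the second component (28.8%) tumor 1 stood apart at -66.5, with the other libraries between -6.2 and 39.8.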
